A study of Ovis aries with 6 samples.

Results

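miR-21 was examined in small RNA libraries from longissimus, the long muscle of the back, of 2 sheep breeds. Qianhua Mutton Merino is written QHMM and Small Tail Han is written STH, and each had 3 libraries. Both groups were kept under natural conditions, and breed is the difference that the labels state; age, sex and the number of animals behind each library were not given in the sources used here. Members were taken by name from the deposited table, as miR-21, miR-21a or miR-21b with or without an arm, which gave 3 of 10430 miRNA names (4 of 11161 rows). The members were chosen by the measured variation of miR-21 CPM among these same 6 libraries, so its levels are given as a description without a test. The myomiRs, the miRNAs that define muscle fibres, summed to between 450149 and 546394 CPM in each library (counts scaled to a total of 1000000, with 1 row per name).

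miR-21 is made from a hairpin whose gene overlaps VMP1, a gene of autophagy, and in the RefSeq table of the sheep assembly ARS-UI_Ramb_v3.0 MIR21 also overlaps VMP1 on chromosome 11. It is known to repress brakes on growth and survival signalling such as PDCD4 and SPRY1. In muscle and heart it is best known from fibroblasts and macrophages, where injury, TGF-beta and STAT3 signalling raise it. The other arm of the hairpin, miR-21-3p, is usually a minor product.

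The sequences of the members are shown because they decide which rows can share reads, with bases 2 to 8, the seed that finds targets, in capitals. The sheep row and the rows under rat, mouse and human names read as follows.
miR-21 (sheep): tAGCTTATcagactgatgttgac
miR-21-5p (rat and human) and miR-21a-5p (mouse): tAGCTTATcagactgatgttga
The rat, mouse and human rows hold 1 shared sequence of 22 nt, which is the sheep sequence of 23 nt without its last base. Despite this, nearly all reads stood at the sheep row. It had 568144 counts over the 6 libraries, against 10 at the rat row, 12 at the mouse row and 2 at the human row. Whether reads of the 22-nt form were counted at the sheep row is not known here, so the 22-nt and 23-nt forms cannot be compared. Most other sheep names also had few counts in such rows, though not all. There were 49 sheep names with at least 1000 counts and a like-sequence row of another species. A median of 0.0230% of their counts stood in the other rows. The share was 0.00422% for miR-21, but 30.7% for miR-23b. No row of the 3p arm, by name, was analysed here, so that all members are 5p and the arms could not be compared.

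Other sequences with the same seed were close to absent, so that this seed was carried almost entirely by miR-21 itself. They are shown for their distance from the member sequence.
miR-21c (mouse): tAGCTTATcagactggtacaa
miR-590-5p (mouse): gAGCTTATtcataaaagtgcag
chr16_31692_mature (predicted locus): gAGCTTATgaagtaaaaataa
miR-21c first departs from the sheep sequence by A16G, counted from 1 at the 5′ end of the sheep sequence, and was counted 5, 2 and 1 times in QHMM and 10, 0 and 4 times in STH. miR-590-5p was counted 0, 0 and 1 times in QHMM and once in each STH library. At the predicted locus there were 1, 0 and 0 reads in QHMM against 1, 1 and 4 reads in STH. Together these names had 33 counts, too few to compare the libraries.

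miR-21 was the 9th most abundant name by mean CPM, and it stood high in 2 STH libraries only. Its counts were 54232, 62057 and 46765 in QHMM replicates 1, 2 and 3, which is 7186, 11136 and 6283 CPM. In STH replicates 1, 2 and 3 it had 224571, 125698 and 54821 counts, which is 30673, 20363 and 6913 CPM. STH replicates 1 and 2 therefore lay above every other library, while STH replicate 3 lay between the QHMM libraries. The breeds overlapped.

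In order, the level fell from STH replicate 1 to STH replicate 2, QHMM replicate 2, QHMM replicate 1, STH replicate 3 and QHMM replicate 3. The last 3 of these lay within 1 SD of the QHMM libraries of each other, although their exact Poisson 95% intervals, which cover counting error only, did not meet (7126 to 7247, 6855 to 6971 and 6226 to 6340 CPM). The QHMM libraries had a mean of 8202 ± 2581 CPM (SD, n = 3), a coefficient of variation of 31.5%. The STH libraries had 19316 ± 11915 CPM (SD, n = 3), a coefficient of variation of 61.7%. Within STH alone the highest library had 4.44 times the lowest, and within QHMM 1.77 times. Over all libraries this ratio was 4.88, and 3.24 without STH replicate 1.

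**Figure D1:**
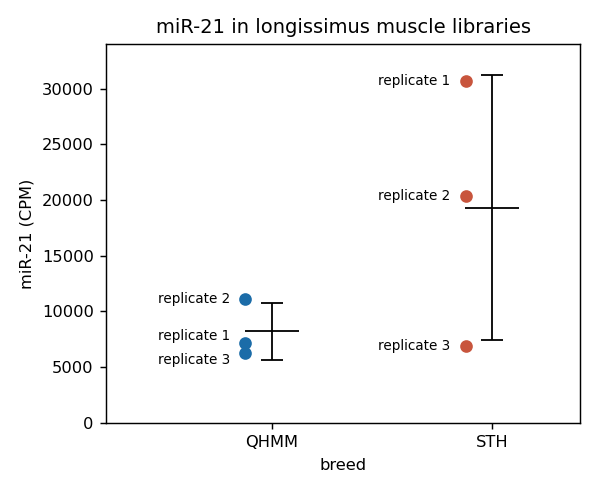
miR-21 in CPM (linear axis) by breed. Each point is a library, named by its replicate number, and each black mark gives the breed mean with its SD (n = 3) as a bar. STH replicates 1 and 2, at 30673 and 20363 CPM, lie above all others, and STH replicate 3, at 6913 CPM, lies among the QHMM libraries.

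In the fit over all names the log2 fold change of miR-21, QHMM over STH, was -1.21 with a standard error of 0.58, given here as a size and not as a test. It was -0.77 without STH replicate 1 and -1.61 without STH replicate 3. The other 2 member names had too few counts to enter the fit.

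miR-21 varied more than most abundant miRNAs, which is the trait for which it was chosen. Its rank in spread is therefore a description of that choice. The SD of its log2(CPM + 1) over the 6 libraries was 0.94, where the median of 533 other names was 0.39; these names had 10 counts or more in each of the libraries and a mean of at least 10 CPM. Of the 67 names with a mean of at least 1000 CPM, 5 had a larger SD. One of them was miR-451-5p of red blood cells with 1.27, which was highest in QHMM replicate 3 (82384 CPM), the library with the least miR-21. The others were the predicted loci chr3_9258_mature (1.56), chr10_23287_mature (1.01), chr6_17247_mature (0.98) and chr8_19812_mature (0.98). In the last 3 of these loci every STH library lay above every QHMM library, which was not the pattern of miR-21. The levels of these 3 loci were much alike, such as 6144, 5568 and 6484 CPM in QHMM replicate 1. Whether they share reads was not tested, so they may not be separate observations.

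**Figure D2:**
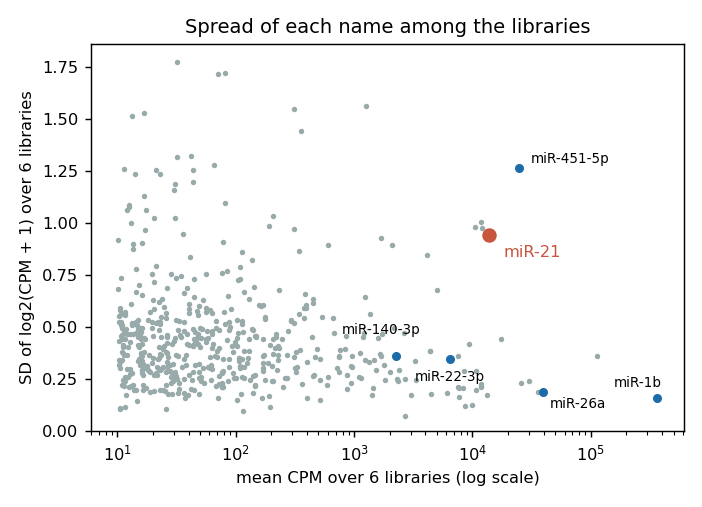
SD of log2(CPM + 1) over the 6 libraries against mean CPM (log scale), 1 point per name for 533 names and miR-21. miR-21, at an SD of 0.94, lies far above miR-26a, miR-22-3p, miR-140-3p and miR-1b, and below miR-451-5p at 1.27.

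The spread was also present when miR-21 was set against other miRNAs of the same library, which does not depend on the library total. Against miR-1, the main miRNA of muscle fibres (listed under the rat name miR-1b), the ratio was 0.0212, 0.0265 and 0.0185 in QHMM and 0.0971, 0.0535 and 0.0173 in STH. Its highest value was thus 5.60 times its lowest. Against miR-145-5p of smooth muscle the highest was 3.30 times the lowest, and against miR-126a-3p of endothelium 4.33 times. Against miR-199a-3p of fibroblasts it was 5.09 times, here with STH replicate 2 highest, and against miR-142-3p of leukocytes 12.3 times. Against miR-26a, miR-16b and miR-22-3p it was 3.61, 4.64 and 8.43 times. Each ratio also moves with the other miRNA and reuses the miR-21 values, so it is a description only.

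Most of the names that followed miR-21 closely over the libraries ranged far less than it did. Pearson's r of log2(CPM + 1) with miR-21 was taken over the 6 libraries for 533 names, as a description without p: all points share the 6 libraries, their depth and a common total. Of these names 12 had r of at least 0.9 and 7 had r of at most -0.9, which is 2.25% and 1.31% of the names. Among all pairs of the 533 names 1.47% and 0.753% were that close, so counts of this size were not far from those of other names. In all of the 12 names STH replicate 1 was highest and STH replicate 2 next. The number at or above 0.9 was 25, 23 and 29 without QHMM replicate 1, QHMM replicate 2 and STH replicate 3. The number at or below -0.9 rose to 15, 12, 14, 20 and 26 without QHMM replicates 1, 2 and 3 and STH replicates 1 and 3.

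The closest names are shown with bases 2 to 8 in capitals, since none of them shares the seed of miR-21.
miR-26a: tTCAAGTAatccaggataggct
miR-26b: tTCAAGTAattcaggataggt
miR-28-3p: aCTAGATTgagagctcctgg
miR-140-3p: aCCACAGGgtagaaccacgga
miR-378g: aCTGGGCTtggagtcagaaga
miR-26a had r = 0.991 (Spearman's rho 0.829) and 34687, 39851 and 34719 CPM in QHMM against 46972, 43599 and 35197 CPM in STH. Its highest library had 1.35 times the lowest, where miR-21 had 4.88 times. miR-26a is a widely expressed miRNA made from introns of the CTDSP phosphatase genes and is known to rise in muscle differentiation.

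miR-26b, from the same family, carries the same seed and differs from miR-26a by C11T and C21T over 21 compared bases, counted from 1 at the 5′ end of miR-26a. It had r = 0.935 and a range of 1.35 times. Reads of both can be counted at either row where they match both.

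miR-28-3p, from an intron of the LPP gene, had r = 0.990, with 81.6, 95.1 and 71.9 CPM in QHMM and 155, 117 and 73.5 CPM in STH. miR-140-3p, known from cartilage and other connective tissue, had r = 0.981, with 1986, 2233 and 1647 CPM in QHMM and 3110, 2835 and 1807 CPM in STH. miR-378g, whose relatives sit in a gene of mitochondrial metabolism, had r = 0.932 at 59.8 to 95.1 CPM. miR-28-3p, miR-140-3p and miR-378g kept the exact order of miR-21 over the libraries. The sequence of miR-378g is close to that of the far more abundant miR-378 (listed as miR-3557-5p, mean 25770 CPM). Whether reads of miR-378 were counted at miR-378g was not tested.

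The other 5 of the 10 closest names were predicted loci without a known miRNA name. chr17_32844 and chr17_33469 each entered with a mature and a star row, at r between 0.949 and 0.975.
chr17_32844 and chr17_33469, star: aGGGCTCGctgagcctcatct
chr17_32844 and chr17_33469, mature: gATGAGGCtcagcgagccctg
The rows of both loci have the same sequences and can hold the same reads, and 20 of the 21 bases of the star row read as the reverse complement of the mature row. These 4 names are thus not separate observations. chr26_43949_mature had r = 0.941 and was the only 1 of the 12 names with a wider range than miR-21, 16.8 times, at 2.12, 7.36 and 3.76 CPM in QHMM and 35.5, 13.9 and 5.80 CPM in STH.

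The 5 names with the lowest r were miR-22-3p and 4 predicted loci, whose sequences are shown because they resemble ribosomal RNA. The other 2 names at or below -0.9 were chr19_36378_mature (r = -0.928) and chr6_17303_star (r = -0.910).
chrx_45954_mature: tACCTGGTtgatcttgccag
chr21_38936_mature: tACCTGGTtgattctgc
chr11_23731_mature: tACCTGGTtgatcctgc
chr5_14702_mature: tACTTGGAtgggagaccgcctg
From general knowledge, chr11_23731_mature reads as the 5′ end of the RNA of the small ribosomal subunit, and chr5_14702_mature as a stretch of the smallest ribosomal RNA; no ribosomal sequence was used here to test this. chrx_45954_mature differs from chr11_23731_mature by C14T and chr21_38936_mature by C13T, counted from 1 at the 5′ end of chr11_23731_mature. Reads that cover these bases can be shared by the rows only if mismatches were allowed, which is not known here. chrx_45954_mature had r = -0.978 with 603, 358 and 649 CPM in QHMM and 230, 296 and 562 CPM in STH. chr21_38936_mature had r = -0.970, chr5_14702_mature r = -0.953 and chr11_23731_mature r = -0.952. These 4 rows were lowest in STH replicates 1 and 2, the libraries with the most miR-21. Their part in the spread of miR-21 was not tested.

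miR-22-3p, known from cardiac and skeletal muscle growth, had r = -0.975 with 7497, 7116 and 7664 CPM in QHMM and 4439, 4970 and 7353 CPM in STH. STH replicates 1 and 2 were the lowest for it, as for all 7 names at or below -0.9. With the levels scaled by trimmed-mean factors its r was -0.829.

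**Figure D3:**
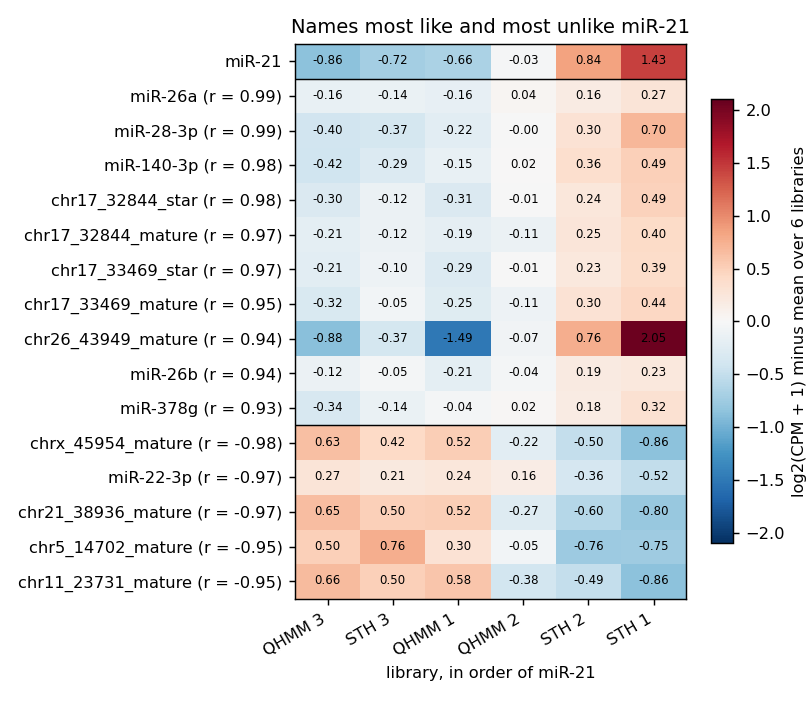
Deviation of log2(CPM + 1) from the mean over 6 libraries for miR-21, the 10 names with the highest and the 5 with the lowest r. Columns are libraries in order of miR-21, red is above and blue below the mean, and the printed values reach 1.43 for miR-21 in STH 1, stay within 0.27 of 0 for miR-26a, and run furthest for chr26_43949_mature.

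Part of this likeness rests on 2 libraries. Without STH replicates 1 and 2, the libraries farthest from the median of miR-21, r over the 4 others was 0.974 for miR-26a, 0.958 for miR-28-3p and 0.916 for miR-140-3p. It was 0.477 for miR-26b, and between 0.487 and 0.801 for the chr17 rows. For the 5 names with the lowest r it lay between -0.996 and -0.838.

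Lists of miRNAs of other cell types were set beside miR-21 because it is made in fibroblasts, leukocytes and vessels as well as in fibres. In bulk tissue, fewer cells of a type and less RNA per cell cannot be told apart. Of 1274 names tested between the breeds with the edgeR quasi-likelihood test, 2.2% passed an adjusted p of 0.05 in either direction (0.314% higher in QHMM and 1.88% higher in STH). Of 45 tested names in the 8 lists, 2 passed, miR-208b-3p (higher in QHMM) and miR-34c-5p (higher in STH). The lists were chosen with earlier results of these data known. None of their members with an r, as matched here, had r with miR-21 of at least 0.9 or at most -0.9. The less abundant row miR-1-3p, which was not the row taken for the listed miR-1, had r = 0.905.

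Members of the fibroblast and TGF-beta response list were divided, some with positive and some with negative r. The list joins miRNAs of fibroblasts with miRNAs changed by TGF-beta in fibrosis, so its median and sum can mix directions. The list of fibroblast and TGF-beta response had 11 of 12 names matched and 9 tested, of which 0 passed. Its median log2 fold change was -0.20, where that of all names tested was 0.031. Its sum ran from 53589 to 67036 CPM in QHMM and from 60808 to 72097 CPM in STH, with most of it in miR-145-5p, miR-143, miR-30c and miR-29a. miR-199a-3p, from the fibroblast cluster that also makes miR-214, had 1475, 1377 and 2005 CPM in QHMM and 2448, 1278 and 1412 CPM in STH. It was highest in STH replicate 1, but in STH replicate 2, where miR-21 was also high, it was the lowest of all libraries (r = 0.311). miR-214-3p was likewise high in one of these libraries and not in the other. It had 1169 CPM in STH replicate 1 and 610 CPM in STH replicate 2 (r = 0.540). miR-199b-5p had 127 CPM in STH replicate 1 and 60.7 CPM in STH replicate 2 (r = 0.503). miR-145-5p of smooth muscle came nearest to miR-21 with r = 0.852, at 22953 to 37747 CPM. miR-143 of smooth muscle had r = 0.719 at 9429 to 15091 CPM, and miR-30c had r = -0.631 at 9806 to 14590 CPM. The miR-29 family, which represses collagens, was mixed. miR-29a had r = -0.855 at 3820 to 5336 CPM, miR-29b had r = 0.566 at 848 to 2064 CPM, and miR-29c-3p had r = -0.221 at 22.1 to 34.6 CPM.

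The summed leukocyte miRNAs were lower in STH than in QHMM, in libraries with much and with little miR-21, but the members were divided. The list had 9 of 10 names matched and 8 tested, 0 of which passed, with a median log2 fold change of 0.095. Its sum was 1834 to 2010 CPM in QHMM and 1220 to 1502 CPM in STH, so that every STH library lay below every QHMM library, and within STH the sum was highest in replicate 1. miR-142-3p, a defining miRNA of blood leukocytes, had 405, 492 and 606 CPM in QHMM and 241, 218 and 282 CPM in STH (r = -0.698). miR-150 of lymphocytes ran from 705 to 1160 CPM (r = -0.109) and miR-223-3p of neutrophils and macrophages from 93.1 to 274 CPM (r = -0.533). miR-223-3p was highest in STH replicate 3. miR-142-5p ran from 122 to 242 CPM. The log2 fold changes, QHMM over STH, of miR-142-3p, miR-142-5p, miR-150 and miR-146b-5p were 1.03, 0.71, 0.29 and 0.80. For miR-223-3p, miR-155-5p, miR-132-3p and miR-9a-5p they were -0.23, -0.35, -0.21 and -0.10. miR-155-5p, which inflammation raises, had 40.0 CPM in STH replicate 1 and 19.6 to 24.6 CPM in the other libraries (r = 0.638). miR-146a-5p had at most 1 count in any library.

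The list of muscle injury and atrophy had 9 of 10 names matched and tested, of which 0 were higher in QHMM and 1 in STH. Its sum was 29786 to 36727 CPM in QHMM and 39286 to 41509 CPM in STH, so that every STH library lay above every QHMM library. Almost all of it was miR-206-3p, known from regenerating fibres but also in the myomiR list, at 28539 to 40746 CPM. miR-206-3p itself did not pass between the breeds (log2 difference QHMM over STH -0.27 ± 0.19, standard error). miR-34c-5p had 4.90, 6.82 and 8.60 CPM in QHMM and 33.2, 37.1 and 35.9 CPM in STH. It was higher in STH, with a log2 difference QHMM over STH of -2.38 ± 0.34 (standard error; edgeR adjusted p = 0.0013), and in STH replicate 3 it lay between the other STH libraries, whereas miR-21 was low there. miR-222-3p, linked to myoblast growth, had 206 CPM in STH replicate 1 and 68.9 to 105 CPM elsewhere (r = 0.734). Its partner miR-221 (173 to 379 CPM) was also highest in STH replicate 1. miR-503-5p (145 to 393 CPM) and miR-335 (149 to 350 CPM) had r of -0.101 and -0.639.

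The endothelium list had 4 of 4 names matched and tested, 0 of which passed, with a sum of 13226 to 27950 CPM in QHMM and 23873 to 25851 CPM in STH. miR-126a-5p had r = 0.811, whereas miR-126a-3p of the same hairpin had 0.582. miR-10a and miR-218a had 0.509 and -0.191. The red blood cell list had 5 of 5 names tested and 0 passed. Its sum was 29047 to 97263 CPM in QHMM and 16594 to 23018 CPM in STH. As for the leukocyte list, the sum in every STH library lay below that in every QHMM library. miR-451-5p and miR-144-3p kept this order, whereas miR-16b, miR-144-5p and miR-486 did not. miR-16b was highest in STH replicate 1, and miR-144-5p was lowest in QHMM replicate 1. miR-16b ran from 8043 to 13620 CPM (r = 0.314), miR-144-3p from 72.8 to 1329 CPM (r = -0.615) and miR-144-5p from 81.9 to 563 CPM (r = -0.260). When miR-451 was left out of the library totals, the range of miR-21 was 4.51 times in place of 4.88. The adipocyte list had 7 of 7 names tested and 0 passed. In it the sequence of miR-378, listed as miR-3557-5p, had r = 0.8996 with miR-21, just under 0.9, and nearly its order over the libraries (rho 0.943), while miR-365-3p ran the other way (r = -0.807). miR-193b-3p (1619 to 3865 CPM) and miR-103 (927 to 1741 CPM) had r of -0.619 and -0.176.

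The epithelium list had 7 of 7 names matched but 1 tested, which did not pass, and its sum was 4.49 to 29.4 CPM in QHMM and 4.37 to 20.4 CPM in STH. Its most abundant member miR-200a ran from 2.69 to 16.03 CPM in QHMM and from 1.94 to 12.8 CPM in STH. miR-205, miR-200b and miR-200c reached at most 6.99, 4.77 and 3.71 CPM in any library, and miR-429 was at 0 in QHMM replicates 2 and 3 and in STH replicate 2. The myomiR list had 7 of 7 names matched and 6 tested, 1 of them higher in QHMM. This was miR-208b-3p, which marks slow fibres, with 142, 109 and 189 CPM in QHMM and 57.9, 65.9 and 56.9 CPM in STH (log2 difference QHMM over STH 1.27 ± 0.29, standard error; edgeR adjusted p = 0.0419), a call lost in 9 of 14 alternatives. miR-1 had r = -0.252 with miR-21, miR-133 had -0.641, miR-206-3p had 0.685 and miR-499-5p had -0.411. The summed myomiRs were lowest in STH replicate 1, at 450149 CPM.

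**Figure D4:**
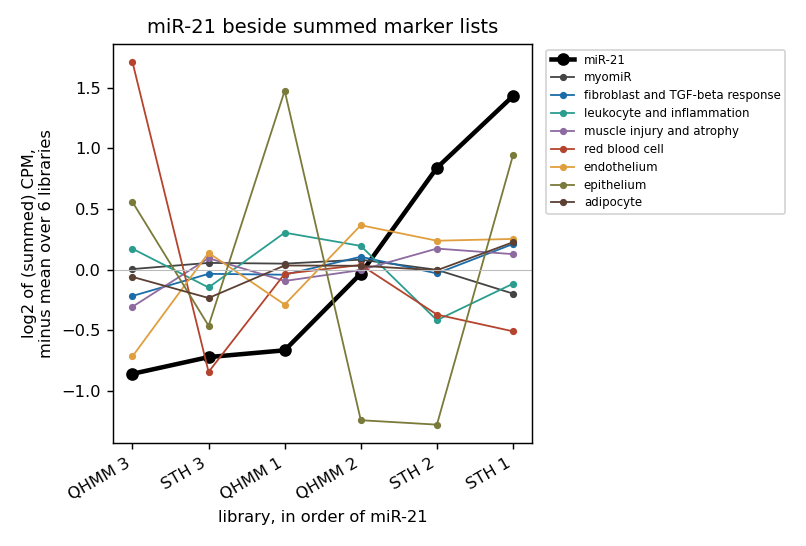
log2 CPM of miR-21 (thick black line) and log2 of the summed CPM of each of 8 lists, as deviations from the mean over 6 libraries, with the libraries in order of miR-21. The sums of the fibroblast, endothelium, injury and adipocyte lists moved by 1.35, 2.11, 1.39 and 1.37 times between their lowest and highest library. miR-21 moved by 4.88 times, and the red blood cell and epithelium sums by 5.86 and 6.73 times. The leukocyte and red blood cell sums were lower in every STH library than in any QHMM library. The injury sum was higher in every STH library than in any QHMM library.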

How the data were processed

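Small RNA from longissimus muscle was size-selected on a gel and read from one end on an Ion Proton, per the labels. The authors deposited a table of raw counts with a row for each mature sequence and a column for each library, without normalization. The submitters' processing notes name Oar_v3.1 and DESeq. The aligner is not given in the sources used here, nor is the way reads with more than 1 match were counted. Library totals over all rows were 8062231 to 11282332.

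Each name was represented by its row with the most counts. Within a breed, pairs of libraries differed with a chi-square of at least 80.3 per degree of freedom, so none was a duplicate. CPM, r of log2(CPM + 1) and intervals were computed in Python 3.11.15 (numpy 2.4.6, scipy 1.17.1, pandas 2.3.3). The breed comparison used the quasi-likelihood test of edgeR 4.0.16 under R 4.3.3 (robust fit, TMM, filterByExpr, no covariates; threshold 0.05 on p adjusted by Benjamini-Hochberg), and DESeq2 1.42.0 was an alternative. Both scripts were tested on simulated data. p-values measure the spread between libraries, which may be technical.

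The members, lists and tests were chosen with earlier results of these data known. Text names follow a rule: members, names with their seed, the 10 highest and 5 lowest r, and of each list the 4 most abundant members and those past the threshold. A listed miRNA was matched by name, with or without its arm or the letter a, or by alias, taking the most abundant candidate, which was settled after the names were seen. miR-155-5p, miR-222-3p, miR-214-3p, miR-29b, miR-429 and other list members beyond the 4 were chosen after their values were seen, as were the miRNAs set under miR-21 as ratios.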

Additional observations from a re-analysis of the deposited data

How the results depend on the processing

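The range of miR-21 over the libraries, 4.88 times, was 4.78 with TMM-scaled CPM, 4.94 with CPM over all rows and with summed rows, 4.51 without miR-451 in the totals, and 3.24 to 4.88 with each library left out. Its log2 fold change ran from -1.62 to -0.77 over 14 alternatives. These refit the same values for which miR-21 was chosen, so the range is a description only. The 28 names called between the breeds (4 higher in QHMM) were 64 with no filter (16 higher in QHMM), 8 with at least 10 counts in every library, 49 with DESeq2 (13 higher in QHMM), 6 with known names only, and 16 to 35 with each library left out (16 without QHMM replicate 3 or STH replicate 3, 18 without STH replicate 2). The 2 list members called were 5 with no filter, 6 with DESeq2, 1 with upper-quartile factors, at least 10 counts or known names only, and 1 to 3 with each library left out (1 without QHMM replicate 3 or any STH library). miR-34c-5p passed in 14 of 14 alternatives (adjusted p = 5.09e-08 to 0.00936), miR-208b-3p in all but 9 (0.00534 to 0.184). The replicate block gave 26 breed calls and 1 list call, with -1.03 for miR-21; deviations of libraries that share a number had correlations of 0.061, 0.24 and 0.12, and the labels give no pairing. Names at r of at least 0.9, 12, were 7 among known names, 17 with TMM-scaled CPM and 17 with Spearman's rho. Leaving out 1 library gave 11 to 29. Of the original 12 names, 10 remained with TMM-scaled CPM, 6 with Spearman's rho and 7 without STH replicate 1. Those at or below -0.9, 7, were 4 with TMM-scaled CPM, 15 with Spearman's rho, 11 as deviations from the breed means, 1 among known names and, leaving out 1 library, 9 to 26. Fewer names or libraries shift these counts by construction; other causes were not tested. The comparison of the 3p share had no value, since no 3p row was analysed here. The number of libraries, not the depth, limits what can be said of miR-21, while same-seed names are limited by their counts.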

Other observations

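Below the 10 names closest to miR-21, relatives of miR-28 stood near the boundary. miR-3586-3p, whose sequence is known in other species as miR-151-5p and resembles miR-28-5p, had r = 0.908 with 2450, 2892 and 2035 CPM in QHMM and 3228, 3028 and 2402 CPM in STH, and it kept the order of miR-21 over all libraries. miR-151a-3p had r = 0.893 and miR-28-5p r = 0.854, at means of 169 and 457 CPM. The human row miR-1-3p had r = 0.905, with 347, 399 and 197 CPM in QHMM and 573, 561 and 278 CPM in STH, whereas the far more abundant miR-1b, whose sequence is the same without the last base, had r = -0.252. These names were chosen after their values were seen.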
